A study of Mus musculus with 2 samples.

Results

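The PGC-1 coactivators and the nuclear factors of mitochondrial biogenesis were followed as a set of 10 genes, chosen by symbol from 55536 genes in the deposited gene tables. They comprise the coactivators Ppargc1a, Ppargc1b and Pprc1, the muscle regulator Perm1, the transcription factors Nrf1 and Gabpa, and the mitochondrial proteins Tfam, Tfb1m, Tfb2m and Polrmt. Total RNA of gastrocnemius, a calf muscle built mainly of fast fibres, was sequenced from 2 female B6CASTF1/J mice, which are hybrids of the B6 and CAST strains, at an age of 2 months. The labels name no treatment. The mice form 1 group and are called animal 2 and animal 1 by their replicate numbers. RNA input was 300 ng per library, and ERCC spike-ins were added. The labels give both animals the same donor record, and if they were not separate mice every SD below measures spread within 1 mouse.

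PGC-1 proteins do not bind DNA themselves. They dock on nuclear receptors and other transcription factors, such as the estrogen-related receptors, and raise transcription of genes for respiration. Nrf1 and Gabpa bind promoters of nuclear genes for respiratory subunits and for Tfam, Tfb2m and other proteins that transcribe mitochondrial DNA, which links the nuclear and mitochondrial genomes. In skeletal muscle PGC-1alpha is known for its induction by exercise and for its association with slow, oxidative fibres.

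Ppargc1a is transcribed from an upstream and a downstream start, and its transcripts differ in exon 7. On mm10 the gene lies on the minus strand at chr5:51454250-51567726, and the annotated starts fall into groups 13804 bases apart. The longer exon 7 begins 31 bases earlier, at chr5:51490091-51490121, and these extra bases bring in a TAA stop codon that ends at their base 13. Ppargc1a-201, with the longer exon, is annotated with 270 codons before its stop, and Ppargc1a-203, with the shorter exon, with 797. The short product of the longer form is known as NT-PGC-1alpha, an amino-terminal form, although the annotation classes its transcripts as nonsense-mediated decay. The junctions are shown because the share of each form is measured below; both run 5′ to 3′ on the transcript strand from the end of exon 6, and capitals mark the extra bases.
Ppargc1a-201, longer exon 7: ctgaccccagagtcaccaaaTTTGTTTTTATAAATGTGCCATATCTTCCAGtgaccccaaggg
Ppargc1a-203, shorter exon 7: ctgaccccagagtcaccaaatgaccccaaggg

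The region before the upstream start is shown because the tables differ in the share of transcripts they place there. RefSeq gives the following 250 bases before that start (chr5:51567726-51567975, minus strand, GRCm38.p6), in which capitals mark CGTCA, the reverse complement of TGACG, the core of the cAMP response element.
Ppargc1a upstream promoter: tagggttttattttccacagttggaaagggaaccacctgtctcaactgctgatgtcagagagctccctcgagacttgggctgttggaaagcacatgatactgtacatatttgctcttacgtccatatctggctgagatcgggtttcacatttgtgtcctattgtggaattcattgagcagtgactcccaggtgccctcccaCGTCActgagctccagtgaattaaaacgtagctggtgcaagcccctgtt

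Sites for the factors of this pathway were looked for in the promoters of the members, Ppargc1a included, from 250 bases before to 50 bases after each RefSeq start. The letters searched, on both strands, were GCATGCGC for Nrf1, CCGGAAG for the ETS family that includes Gabpa, AAGGTCA for the estrogen-related receptors, TGACGTCA for the full cAMP response element, TGACG for its core, which the full element contains, and CACGTG for the E-box. They were chosen after the sequences had been seen. Windows were at hand for 9 of the 10 members, all but Ppargc1b, whose promoter was not searched. The windows below carry Nrf1, ETS and estrogen-related receptor letters in capitals, on the strand of each gene.
Tfb2m, Nrf1 letters, chr1:179546246-179546273: taggtcgttcGCATGCGCcattcgtaat
Polrmt, Nrf1 letters, chr10:79746697-79746724: gagtatttctGCGCATGCtctcttgccg
Polrmt, ETS letters, chr10:79746608-79746634: cctaagagcgCTTCCGGcagtcgcaga
Tfam, ETS letters, chr10:71238075-71238101: ctgccgcggaCCGGAAGtccgggcttc
Gabpa, ETS letters, chr16:84835021-84835047: agggtaagtgCTTCCGGgtccctcagc
Perm1, estrogen-related receptor letters, chr4:156215715-156215741: gaatccggtgTGACCTTagctaatgcc

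The Nrf1 letters stood in 2.71% of 32851 RefSeq windows of the same length and in the windows of 2 members. The ETS letters stood in 8.86% of all windows and in those of 3 members, and the estrogen-related receptor letters in 4.72% and in 1 member, Perm1. TGACG stood in 20.8% and in 2 members, Ppargc1a and Tfb1m. The full cAMP response element (1.79%) and the E-box (7.15%) stood in none of the 10 windows held for 9 members. Starts without such a window were not searched, and the Ppargc1a match lies before its upstream start. A match is a run of letters and not a measured binding site.

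The libraries held about 47771300 expected counts on genes in animal 2 and 45014800 in animal 1. Genes at 1 TPM or more, where TPM is a relative abundance per transcript length, numbered 11425 in animal 2 and 11889 in animal 1. Markers of fast fibres dominated, with a summed level of 58037 TPM in animal 2 against 61845 TPM in animal 1 over 12 genes, led by the fast troponin gene Tnnt3 and the light chain gene Mylpf. The animals stood apart in other cells and fibres. All 10 slow fibre markers were more than 2-fold higher in animal 2 (summed 4022 and 948 TPM in animals 2 and 1), with the light chain genes Myl2 and Myl3 the most abundant. Of 11 white adipocyte markers with a mean count of 100 or more, 10 were more than 2-fold lower in animal 2 (231 and 948 TPM over the 12 listed), and so were all 8 Schwann cell markers that reached this count (35.1 and 258.6 TPM over 12). Cfd and Pnpla2 led the adipocyte list. In bulk tissue, fewer cells of a type and less RNA per cell cannot be told apart.

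All 10 genes were expressed, each reaching 1 TPM in both animals. Perm1 was the most abundant by a wide margin, and the other 9 had means of 4.01 to 20.6 TPM. The median of the 10 means was 11.3 TPM, beside 7.74 TPM for the 10227 nuclear protein-coding genes at 1 TPM or more in both animals. Together they summed to 198 TPM in animal 2 against 175 TPM in animal 1, of which Perm1 held 47.9% in animal 2 and 44.7% in animal 1.

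Ppargc1a encodes PGC-1alpha, the founding coactivator of the family. Its level was 24.98 TPM in animal 2 against 14.19 TPM in animal 1, a mean of 19.6 ± 7.63 TPM (SD, n = 2). This was the largest relative spread among the members in the gene table (a coefficient of variation of 39.0%), while in the second transcript table that of Polrmt was larger (28.6%, beside 26.0% for Ppargc1a). Ppargc1b (chr18:61298136-61400431, minus strand) encodes the related PGC-1beta and stood at 8.10 TPM in animal 2 against 7.54 TPM in animal 1 (7.82 ± 0.396 TPM). Pprc1 (chr19:46044886-46072915, plus strand) encodes the third family member, PRC, which is best known from growing cells, and stood at 5.39 TPM in animal 2 against 6.99 TPM in animal 1 (6.19 ± 1.13 TPM). Among the family, Ppargc1a was thus the highest in each animal. The log2 ratio of TPM of Ppargc1a over Ppargc1b was 1.61 in animal 2 against 0.90 in animal 1, and its mean of 1.26 exceeded 2 SD (SD 0.50), the limit used for a ratio larger than the spread. For Ppargc1a over Pprc1 the log2 ratio was 2.19 in animal 2 against 1.01 in animal 1. Its mean of 1.60 did not pass that limit (SD 0.83), whereas in the second transcript table it did (1.74 ± 0.46). The Ppargc1a level includes the 488-nt Ppargc1a-202, at 7.76 TPM in animal 2 against 5.06 TPM in animal 1 in the first transcript table. The ratios and ranks that use the Ppargc1a level were not recomputed without this short transcript.

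Perm1 (chr4:156215868-156221307, plus strand), which PGC-1 and the estrogen-related receptors induce and which in turn supports oxidative gene expression in muscle, had 95.01 TPM in animal 2 against 78.28 TPM in animal 1 (86.6 ± 11.8 TPM). It lay above 97.6% of all nuclear protein-coding genes. The log2 ratio of Perm1 over Ppargc1a was 1.92 in animal 2 against 2.46 in animal 1, with a mean of 2.19 ± 0.38 (about 4.56-fold), larger than the spread.

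The transcription factors both stood below Perm1 and Ppargc1a in each animal. Gabpa (chr16:84834925-84863779, plus strand), the DNA-binding subunit of nuclear respiratory factor 2, had 12.23 TPM in animal 2 against 10.51 TPM in animal 1 (11.4 ± 1.22 TPM). Nrf1 (chr6:30047988-30153458, plus strand), nuclear respiratory factor 1, had 4.67 TPM in animal 2 against 4.89 TPM in animal 1 (4.78 ± 0.156 TPM). Gabpa exceeded Nrf1 by a mean log2 ratio of 1.23 ± 0.20, larger than the spread, and by 0.77 ± 0.30 in the second transcript table.

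Of the proteins that act inside the mitochondrion, Tfam was highest by TPM of its gene. Tfam (chr10:71225464-71238280, minus strand) packages mitochondrial DNA and helps to start its transcription, and it had 19.94 TPM in animal 2 against 21.30 TPM in animal 1 (20.6 ± 0.962 TPM). Tfb2m (chr1:179528055-179546267, minus strand), the factor that opens mitochondrial promoters for the polymerase, had 14.28 TPM in animal 2 against 14.78 TPM in animal 1 (14.5 ± 0.354 TPM). Its relative Tfb1m (chr17:3519256-3557781, minus strand), which methylates the ribosomal RNA of the small mitochondrial subunit, had 4.17 TPM in animal 2 against 3.84 TPM in animal 1 (4.01 ± 0.233 TPM). The initiation factor thus exceeded the methyltransferase in each animal, with a mean log2 ratio of 1.83 ± 0.12 that was larger than the spread. Polrmt (chr10:79736123-79746581, minus strand), the RNA polymerase of the mitochondrion, had 9.69 TPM in animal 2 against 12.63 TPM in animal 1 (11.2 ± 2.08 TPM). Tfam over Polrmt gave a mean log2 ratio of 0.89 ± 0.20, larger than the spread, so 5 of the 6 ratios passed the limit. Transcripts under 1000 nt held a mean of 72.6% of the TPM of Tfam and 36.8% of that of Polrmt in the first transcript table. The place of Tfam and its ratio to Polrmt were not recomputed without them.

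The order of the mean levels was Perm1, Tfam, Ppargc1a, Tfb2m, Gabpa, Polrmt, Ppargc1b, Pprc1, Nrf1 and Tfb1m. Tfam and Ppargc1a, Ppargc1a and Tfb2m, and Gabpa and Polrmt swapped places between the animals, so these neighbours cannot be ranked. The other neighbours kept their order in each animal in the gene table. The second transcript table, made by another method, gave summed levels of 136.5 and 114.5 TPM for Perm1 in animals 2 and 1, and of 32.4 and 22.3 TPM for Ppargc1a. The members other than Nrf1 had means there of 1.11 (Polrmt) to 1.54 (Gabpa) times those of the gene table. Nrf1 differed most between the tables, with a mean 2.14 times that of the gene table. At 9.80 TPM in animal 2 against 10.6 TPM in animal 1 it stood above Pprc1 (7.67 and 8.28 TPM) in each animal, and above Ppargc1b (11.2 and 10.3 TPM) in animal 1, so its rank depended on the table.

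**Figure D1:**
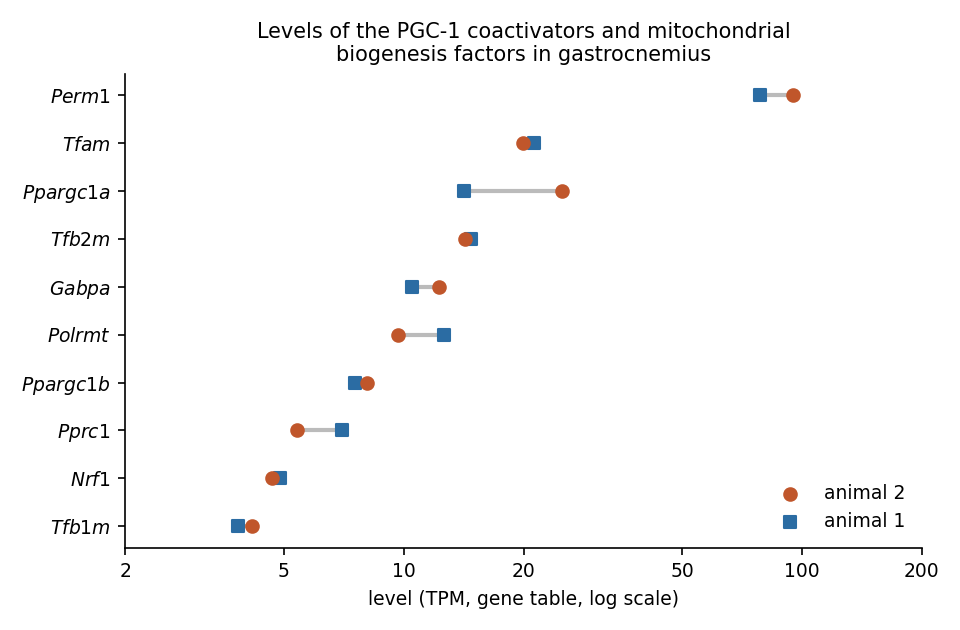
Level of each gene in TPM on a log axis, with 1 point per animal and a grey line joining the animals. Perm1 stands apart at 95.01 TPM in animal 2 against 78.28 TPM in animal 1, and Ppargc1a shows the longest line between the animals, with 24.98 TPM in animal 2 against 14.19 TPM in animal 1.

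How far the animals differed was measured from expected counts scaled with edgeR's TMM factors, as a log2 ratio of animal 2 over animal 1 with a 95% exact binomial interval that covers counting error only. Ppargc1a was the member furthest apart. It had 3289 counts in animal 2 against 1790 in animal 1, a log2 ratio of 0.90 (interval 0.82 to 0.99, or 1.87-fold), above 99.0% of the 10872 genes that averaged at least 100 counts. None of the 10 members differed by 2-fold (1 with spike-in scaling, Ppargc1a at a log2 ratio of 1.10), where 2.97% of those genes did, 0.791% with the higher value in animal 2 and 2.18% with the higher value in animal 1. Ppargc1a alone passed 1.5-fold (2 members with spike-in scaling), where 8.04% did, 2.44% higher in animal 2 and 5.6% higher in animal 1.

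Perm1 had 14462 counts in animal 2 against 11202 in animal 1, a log2 ratio of 0.39 (interval 0.36 to 0.43). Gabpa followed with 1839 counts in animal 2 against 1524 in animal 1, a log2 ratio of 0.30 (0.20 to 0.39). Ppargc1b had 1080 and 922 counts in animals 2 and 1 (log2 0.25, 0.12 to 0.38), and Tfb2m 1293 and 1120 (log2 0.23, 0.12 to 0.35). For Tfb2m the scaled count was higher in animal 2 while its TPM in the gene table was lower. The 458-nt Tfb2m-205 stood at 0 TPM in animal 2 against 2.24 TPM in animal 1 in the first transcript table. With Ppargc1a these are the 5 members whose counting interval left out 0, as did that of 47.8% of those 10872 genes. That share is close to the members' own, so the count says nothing particular about them.

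For the other 5 members the interval held 0. Tfb1m had 220 counts in animal 2 against 189 in animal 1 (log2 0.24, interval -0.04 to 0.53), and Tfam 1214 and 1230 (log2 0.01, -0.11 to 0.12, and -0.10 with library size alone). Nrf1 had 403 counts in animal 2 against 436 in animal 1 (log2 -0.09, -0.29 to 0.11). Pprc1 stood at 830 and 915 counts (log2 -0.12, -0.25 to 0.02) and Polrmt at 837 and 929 (log2 -0.13, -0.26 to 0.01), in animals 2 and 1. The 3 members with a negative ratio therefore include both PRC and the mitochondrial polymerase. Scaled to spike-in totals instead, all 3 were positive, at 0.11 for Nrf1, 0.08 for Pprc1 and 0.07 for Polrmt.

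In all, 7 of 10 members were higher in animal 2 by scaled count, where 54.8% of the tested genes were. With library size alone 6 members were, beside 31.9% of the tested genes. With spike-in scaling 10 were, beside 80.6%, so these counts follow the scaling. The median log2 ratio with TMM scaling was 0.24, beside 0.02 for all tested genes. By TPM 5 of 10 were higher in animal 2, since Tfam and Tfb2m were lower there, where 33.3% of the tested genes were higher. Of all genes past 2-fold, 86 were higher in animal 2 and 237 in animal 1, and scaling to spike-ins gave 137 in animal 2 and 173 in animal 1. The higher Ppargc1a in animal 2 went together with the higher slow fibre markers and the lower white adipocyte and Schwann cell markers in that animal. The part of fibre type and of these cells in the difference was not tested. Of the defining genes of brown adipocytes, which also express Ppargc1a, Ucp1 had 1 count in animal 2 against 0 in animal 1, and Elovl3 had 2 and 0. Of the other listed genes, Cidea had 27 counts in animal 2 against 11 in animal 1, while Zic1 (53 and 204), Ebf2 (235 and 363), Dio2 (174 and 241), Prdm16 (133 and 174) and Kcnk3 (18 and 48) had fewer in animal 2. The brown adipocyte list summed to 546.5 TPM in animal 2 against 544.1 TPM in animal 1, nearly all from Cox7a1 and Cpt1b, which muscle expresses.

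**Figure D2:**
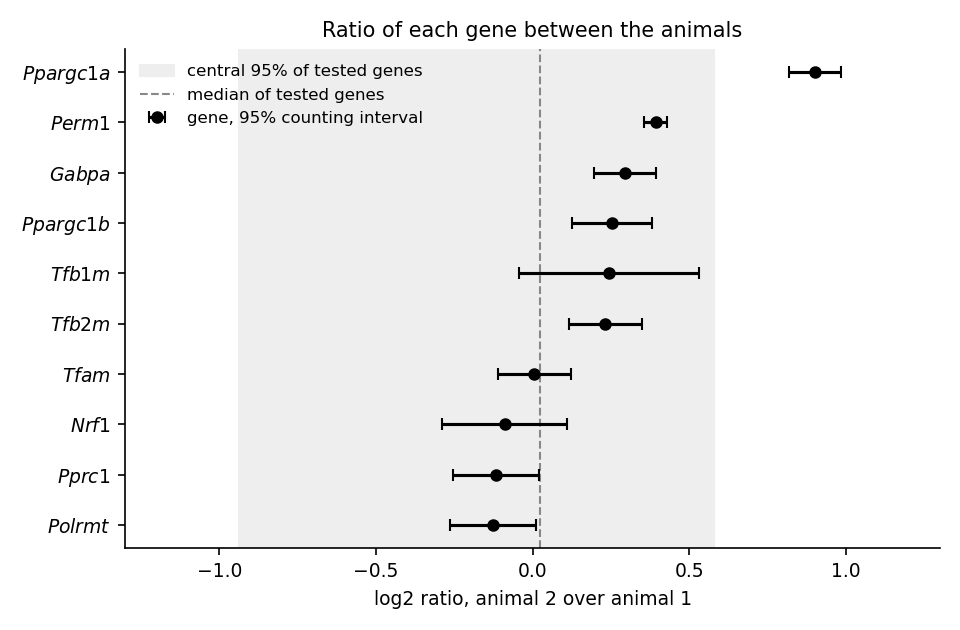
Log2 ratio of animal 2 over animal 1 for each gene, with bars for the 95% counting interval, over a grey band for the central 95% of the 10872 tested genes (-0.94 to 0.58) and a dashed line at their median of 0.02. Ppargc1a, at 0.90, lies beyond the band, and the other 9 genes lie inside it.

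The transcript tables placed Ppargc1a on 5 annotated transcripts. Ppargc1a-203, the 6464-nt transcript from the downstream start that encodes full-length PGC-1alpha, led in both tables. It was at 9.14 TPM in animal 2 against 5.62 TPM in animal 1 in the first table, which is 38.1 ± 2.11% of the gene's TPM (SD, n = 2). In the second table its share was 36.3 ± 3.03%. By expected count it held more, 73.0% in the first table and 71.1% in the second, since a long transcript collects more reads per molecule.

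How much Ppargc1a came from the upstream start depended on 1 short transcript. Ppargc1a-202, 488 nt long and annotated without a stop codon, was at 7.76 TPM in animal 2 against 5.06 TPM in animal 1 in the first table, from 120.9 and 74.0 expected counts. With it, the upstream start held 41.1% of the TPM in animal 2 and 35.6% in animal 1 in the first table, and 29.2% in animal 2 and 41.7% in animal 1 in the second. The tables thus disagreed on which animal had the larger share. Without Ppargc1a-202 the upstream share was 14.5% in animal 2 against 0% in animal 1 in the first table, and 12.9% and 4.46% in the second. That remainder is Ppargc1a-204 alone, and it is uncertain. In the first table Ppargc1a-204 had 235.25 expected counts in animal 2 with a posterior SD of 93.35, and 0 in animal 1 with a posterior SD of 29.2. By expected count, with Ppargc1a-202, the upstream share was 10.8% in animal 2 against 4.14% in animal 1 in the first table, and 7.31% and 4.27% in the second.

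The downstream start was the larger source of reads in each library and table. Its transcripts summed to 14.72 TPM in animal 2 against 9.14 TPM in animal 1 in the first table, and to 22.9 and 13.0 TPM in the second, so the higher level in animal 2 was present at this start in both tables (1.61-fold and 1.76-fold by TPM). Upstream transcripts held 356 expected counts in animal 2 against 74.0 in animal 1 in the first table, and 272 and 84.6 in the second. Ppargc1a-205, a downstream transcript with 696 codons, had 15.7 ± 4.34% of the TPM in the first table and 11.8 ± 7.09% in the second.

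The longer exon 7, shown above, was carried by Ppargc1a-201 from the downstream start and by Ppargc1a-204 from the upstream one. Together they held 13.5% of the gene's TPM in animal 2 and 12.1% in animal 1 in the first table (12.8 ± 1.00%), and 26.0% in animal 2 and 20.1% in animal 1 in the second (23.0 ± 4.17%). By expected count the share was 10.3% in animal 2 against 10.6% in animal 1 in the first table, and 18.6% and 18.5% in the second. The animals lay close by count within each table, and the tables differed from each other by more than the animals did. The split between both transcripts was less certain. In the first table Ppargc1a-201 had 103.3 expected counts in animal 2 with a posterior SD of 92.4, and 190.1 in animal 1 with a posterior SD of 60.0.

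The other members differed in how far a single transcript explained their level. Of 71 transcripts annotated for the 10 genes, 8 were at 0 TPM in both tables and both animals. In 5 genes a single transcript held over 50% of the TPM in the first table, and in 6 in the second. The leading transcript was the same in both tables for 8 genes. Perm1 has 1 annotated transcript, Perm1-201, which held 100% by construction.

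Ppargc1b-202 held 91.8 ± 1.77% of Ppargc1b in the first table but 62.7 ± 8.81% in the second, where Ppargc1b-201 took 37.3%. Ppargc1b-201 was at 0 in the first table. For Pprc1 the tables named different leading transcripts, Pprc1-201 with 33.7 ± 8.19% in the first and Pprc1-203 with 41.0 ± 5.58% in the second. Pprc1-208 held 18.7% in the first table and 0% in the second, and Pprc1-204 held 0% and 20.8%. Both are under 1000 nt long, and each took less than 2% of the counts where it was present.

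Gabpa-201 led Gabpa with 62.4 ± 2.17% in the first table and 58.1 ± 4.60% in the second, followed by Gabpa-202 with 35.2% and 27.0%. Nrf1 was spread over 20 annotated transcripts. Its leading transcript, Nrf1-210, held 28.9 ± 6.90% in the first table and 17.9 ± 6.74% in the second. Nrf1-207 held 23.3% and 6.81%, Nrf1-211 14.0% and 7.50%, and the 486-nt Nrf1-218 3.74% and 16.5%, in the first and the second table. No transcript of Nrf1 held over 50% by TPM or by count.

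For Tfam the leading transcript depended on the table. The 779-nt Tfam-202 led the first table with 43.1 ± 4.89%, and the 899-nt Tfam-203 led the second with 44.4 ± 4.49%, where the first gave it 0.45%. Tfam-205 held 21.8% in the first table and 0% in the second. The 4167-nt Tfam-201 held 27.4% and 27.6%, and by count it led in both tables, with 72.9% and 74.4%. Tfb1m-201 held 99.0 ± 0.648% of Tfb1m in the first table and 92.4 ± 1.81% in the second, and Tfb2m-201 held 88.3 ± 8.05% and 89.4 ± 1.70% of Tfb2m.

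Polrmt had the smallest mean share of TPM on protein-coding transcripts, 60.9% in animal 2 and 60.8% in animal 1 in the first table, and 75.8% and 67.8% in the second. In the second table Ppargc1a was lower in animal 2, at 74.0%. By expected count Polrmt had 88.7% in animal 2 and 91.6% in animal 1 in the first table, and 94.6% and 95.6% in the second, where Ppargc1a had 81.4% and 81.5%. The median over the 10 genes was 92.3% in the first table and 90.9% in the second. Polrmt-201, the full-length coding transcript, held 32.3 ± 2.41% in the first table and 53.2 ± 10.9% in the second. Polrmt-205, a processed transcript of 374 nt, held 31.2 ± 7.81% in the first table and 0% in the second. The coding transcripts Polrmt-202 and Polrmt-209 held 14.8% and 13.7% in the first table, and 11.9% and 6.68% in the second. Polrmt-204, a retained intron of 395 nt, was at 0% in animal 2 and 23.6% in animal 1 in the second table and held 0.77% in the first.

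**Figure D3:**
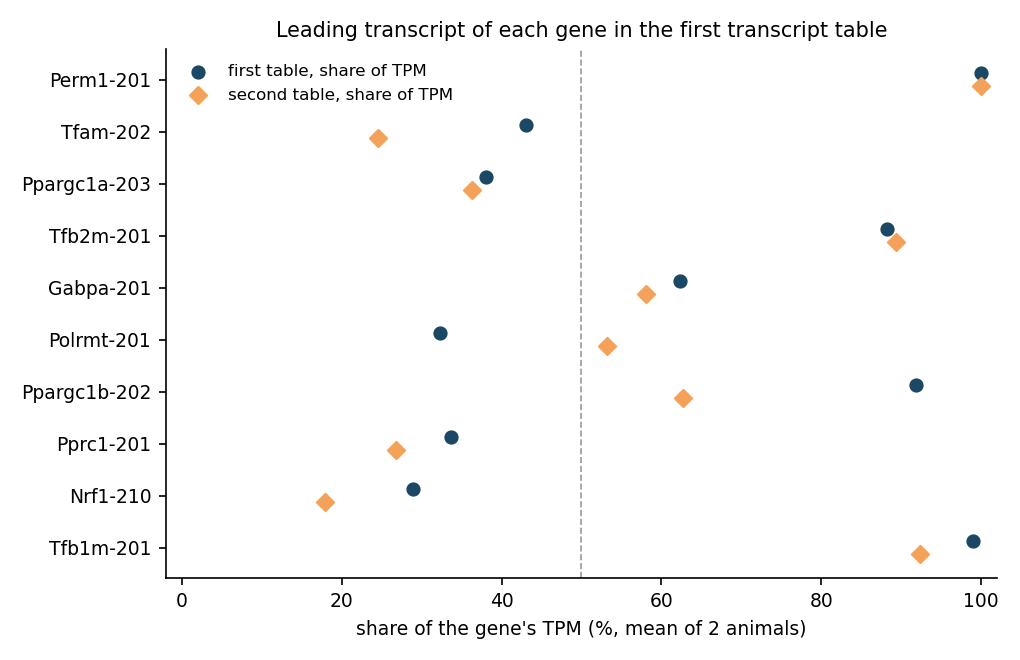
Share of each gene's TPM held by the transcript that leads in the first transcript table, as a mean of both animals, with circles for the first and diamonds for the second table and a dashed line at 50%. Perm1-201, Tfb1m-201 and Tfb2m-201 stay near the right edge in both, while Ppargc1b-202 (91.8% and 62.7%), Polrmt-201 (32.3% and 53.2%) and Tfam-202 (43.1% and 24.6%) move between tables.

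Several members are annotated close to the start of a neighbour on the other strand. A gene starting within 1000 bases on the opposite strand, overlapping or not, was annotated for 4 of the 10 members (40%). The same held for 27.8% of the detected nuclear protein-coding genes. Gabpa is paired with Atp5j, which encodes a coupling subunit of ATP synthase, with starts 700 bases apart. Atp5j stood at 496.80 TPM in animal 2 against 458.63 TPM in animal 1, far above Gabpa. Tfb2m is paired with Cnst (starts 103 bases apart), which had 14.34 TPM in animal 2 against 12.39 TPM in animal 1. Pprc1 is paired with Ldb1 (328 bases), which had 6.38 TPM in animal 2 against 8.02 TPM in animal 1. That pair rests on the start of Pprc1-207, which was at 0 TPM in both tables and both animals, and the first start of a Pprc1 transcript above 0 lies 11653 bases further on. The fourth pair, Tfb1m with the non-coding 1700102H20Rik, had 1 count in animal 2 against 3 in animal 1 for the partner. The strand setting of the counts is not given in the sources used here, so reads where such genes overlap, as for Gabpa and Atp5j or Pprc1 and Ldb1, cannot be assigned with certainty.

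The wider pathway was described by 5 lists. All 20 receptors and factors that recruit PGC-1 reached 1 TPM in both animals. By scaled count 18 of them were higher in animal 2, where 54.8% of all tested genes were, at a median log2 ratio of 0.24. By TPM 13 were, where 33.3% of all tested genes were. The most abundant were the MADS-box factors Mef2c (178.0 TPM in animal 2 against 173.7 TPM in animal 1) and Mef2d (61.9 and 59.2 TPM) and the retinoid receptor Rxra (42.5 and 38.6 TPM). Ppara, the fatty acid receptor that PGC-1alpha coactivates, was the only one of the 20 past 2-fold, where 2.97% of all tested genes were. It had 16.92 TPM in animal 2 against 6.72 TPM in animal 1, or 1838 and 710 counts, a log2 ratio of 1.40.

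Regulators of PGC-1, among them kinases, acetyltransferases and corepressors, differed less. Of 24 genes, 23 were detected, at a median log2 ratio of 0.09 (-0.02 with library size alone), with 14 higher in animal 2 and 9 higher in animal 1 by scaled count. By TPM 5 were higher in animal 2 and 18 in animal 1. Of all tested genes, 54.8% were higher in animal 2 by scaled count and 33.3% by TPM. None passed 2-fold. The highest were the ubiquitin ligase gene Trim63 (116.4 TPM in animal 2 against 129.4 TPM in animal 1), the calcineurin subunit Ppp3ca (54.5 and 60.3 TPM) and the arginine methyltransferase Prmt1 (48.9 and 51.2 TPM).

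Downstream, 22 of 26 genes for transcription, replication and RNA processing in the mitochondrion were detected. Their median log2 ratio was 0.14 (0.03 with library size alone). None was past 2-fold, where 2.97% of all tested genes were. By scaled count 17 of the 22 were higher in animal 2, beside 54.8% of all tested genes, and by TPM 12 were, beside 33.3%. The RNA-binding Slirp (64.5 TPM in animal 2 against 63.0 TPM in animal 1), the ribosomal Mrpl12 (63.4 and 57.8 TPM) and Hsd17b10, a subunit of mitochondrial RNase P (43.8 and 44.8 TPM), were the highest. All 30 nuclear respiratory genes were detected, and their median level was 278 TPM. Of these, 29 were higher in animal 2 by scaled count and also by TPM, beside 54.8% and 33.3% of all tested genes. Their median log2 ratio was 0.22 within a range of -0.01 to 0.38. The ATP synthase genes Atp5b (1612 TPM in animal 2 against 1497 TPM in animal 1) and Atp5a1 (825.6 and 775.7 TPM) and the cytochrome oxidase gene Cox4i1 (649.8 and 615.3 TPM) were highest. The respiratory genes thus lay within a narrow band of small differences. None of them was past 2-fold, where 2.97% of all tested genes were, so that count says nothing particular about them.

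All 13 coding genes of the mitochondrial genome were detected. Their median log2 ratio was 0.24 within a range of -0.22 (mt-Co2) to 0.86 (mt-Co3). Of these, 12 were higher in animal 2 by scaled count and also by TPM, beside 54.8% and 33.3% of all tested genes. The subunit genes mt-Co1 (17531 TPM in animal 2 against 16759 TPM in animal 1), mt-Cytb (9811 and 9090 TPM) and mt-Nd1 (8198 and 7561 TPM) were highest. Reads of mitochondrial genes can be shared with nuclear copies, so these levels are uncertain. The medians of these 5 lists shift with the scaling. The median of all tested genes was 0.22 with spike-in totals and -0.09 with library size alone. Each of these scalings shifts all genes alike, so Ppargc1a stood 0.88 above the median of all tested genes in each.

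**Figure D4:**
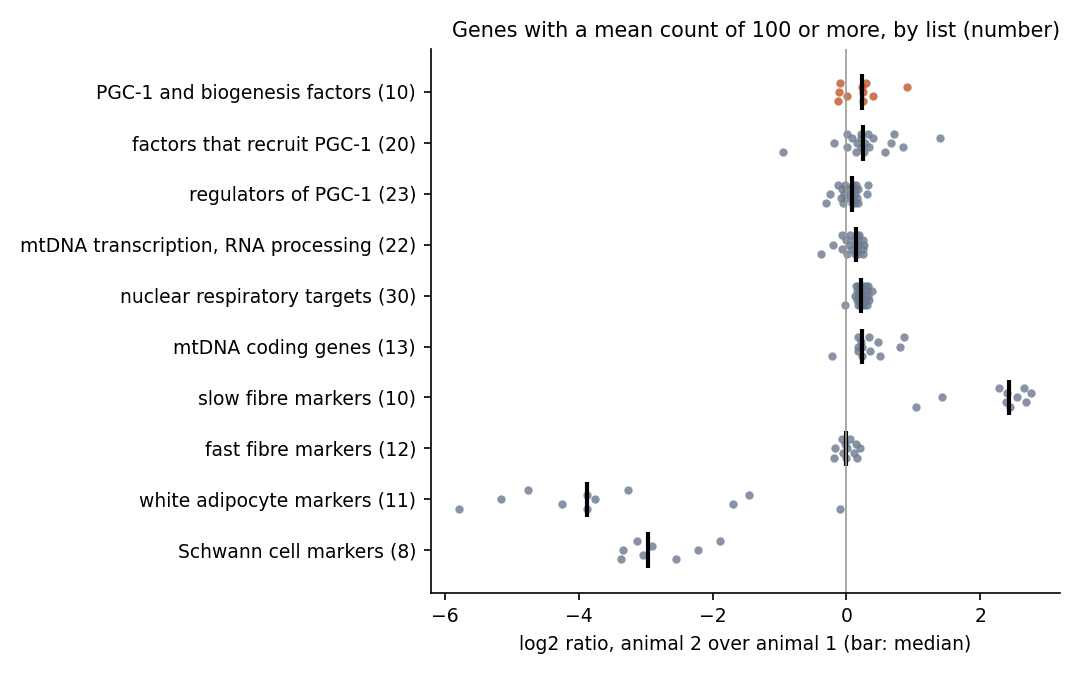
Log2 ratio of animal 2 over animal 1 for each gene that averaged at least 100 counts, in rows for the 10 genes of the report, 5 pathway lists and 4 marker lists, with a bar at each median. The pathway rows have medians of 0.09 to 0.24, the slow fibre row stands at 2.42, and the white adipocyte and Schwann cell rows stand at -3.88 and -2.97.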

How the data were processed

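Levels are TPM and expected counts as the authors deposited them, in gene and transcript tables with the column layout of RSEM, on mm10 and GENCODE M21 per the labels and file lists. Shares in percent were recomputed from these TPM, and they lay within 0.104 percentage points of the percent column the authors deposited in the first transcript table. Posterior SDs and credibility bounds deposited beside them are scores of the authors' quantifier. A second transcript table per library, in the layout of kallisto, holds expected counts and TPM deposited by the authors. The sources used here give no tool versions and no strand setting. Reads of CAST alleles counted on a B6 genome can be lost, and by how much was not analysed here.

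The 10 genes, the lists and the tests were chosen with earlier results of these data known. All 219 entries of 15 lists, the 10 genes included, matched the tables. Spike-ins, phiX (0 counts in animal 2 against 1 in animal 1) and 26248 numbered rows without a gene name (5 and 3 counts, 1.05e-05% and 6.66e-06% of counts) were kept out of library sizes. Expected counts were rounded to whole numbers. Scaling used edgeR 4.0.16 TMM factors over 22007 genes averaging at least 1 count, with a prior count of 0.5; ratios of TPM used a pseudocount of 0.1. The common biological coefficient of variation was 0.231. With 1 group of 2 libraries no test was run, because 0.5 is the smallest two-sided p that an exact test reaches with 2 values. The ratio procedure was run on simulated counts with known folds, at a lower spread than measured here and with equal numbers of genes changed each way. That run checks the computation and not the ratios of these libraries. From each pathway list the text names the 3 genes of highest mean TPM and every gene past 2-fold, from the marker lists that the report describes the 2 of highest mean TPM, and every transcript with a mean share of 10% or more in either table; others were named after their values were seen. A few genes under this rule are not reported here. The remaining marker lists had median log2 ratios of 0.00 (fast fibre), -0.40 (brown adipocyte), -0.33 (fibroblast), -0.10 (endothelial), -0.55 (macrophage) and -0.10 (satellite cell). At these depths 3 counts on a transcript of 2000 nt equal 0.0377 TPM in animal 2 against 0.0402 TPM in animal 1. Alternatives were other scalings (DESeq2 1.42.0 median of ratios, library size, spike-ins), filters, prior counts, pseudocounts, the second table, shares by count, and each library left out. Scripts ran in R 4.3.3 and in Python 3.11.15 with scipy 1.17.1, pandas 2.3.3, numpy 2.4.6 and matplotlib 3.10.9.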

Additional observations from a re-analysis of the deposited data

How the results depend on the processing

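No paired analysis was possible because the libraries form 1 group. There were 258 alternative values of 51 results. Of these, 23 of the main results and 48 of single genes or transcripts moved past the limit set for them. Levels, shares and counts have no sign to change. None of the log2 ratios of TPM between members changed sign. Between the animals, the ratios of Tfam, Nrf1, Pprc1 and Polrmt, whose intervals held 0, changed sign under some scalings. So did the median of the regulators. The median member level of 11.3 TPM was 15.0 TPM in the second transcript table, 11.8 TPM by posterior means and 29.9 when rescaled to nuclear protein-coding genes alone, and 10.96 to 11.57 TPM with a library left out. Spike-in scaling gave a median member log2 ratio of 0.44, with 1 member (Ppargc1a, 1.10) past 2-fold and 2 past 1.5-fold. It also gave list medians of 0.44 (recruiting factors), 0.28 (regulators), 0.34 (mitochondrial transcription), 0.42 (respiratory genes) and 0.43 (mitochondrial genome). With library size alone these were 0.13, -0.024, 0.03, 0.11 and 0.13 for recruiting factors, regulators, mitochondrial transcription, respiratory genes and the mitochondrial genome, the last of which DESeq2's scaling put at 0.22. Ppargc1a ranged from 0.79 to 1.10, and Tfam was negative under 3 scalings (down to -0.10). By counts, 8 members in place of 5 had over 50% on their leading transcript. The median coding share was 90.9% in the second table and 92.1% to 93.5% with a library left out. The upstream start of Ppargc1a held 38.4% by TPM, 7.48% by count and 7.26% without Ppargc1a-202, and 35.6% to 41.1% with a library left out. The longer exon 7 held 12.8% by TPM, 23.0% in the second table and 10.5% by count. These Ppargc1a alternatives were chosen after seeing the data, and the causes were not tested, except that short transcripts weigh more in TPM than in counts by construction. Ppargc1a over Pprc1 passed the limit of 2 SD in the second table (1.74) alone. With 2 libraries every difference lacks a replicate check.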

Other observations

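Other genes of the recruiting list and of the Ppargc1a locus, named after their values were seen, are given here as values. The estrogen-related receptors, main partners of PGC-1 in muscle, were each higher in animal 2. Esrra had 38.82 TPM in animal 2 against 33.45 TPM in animal 1 (log2 ratio 0.32), Esrrg 14.02 and 10.94 TPM (0.57), and Esrrb 4.11 and 2.41 TPM (0.84). The thyroid hormone receptor Thrb had 14.33 TPM in animal 2 against 10.06 TPM in animal 1 (0.67), and Foxo1, a factor of the fasting response, had 13.11 and 8.68 TPM (0.71). Pparg, the receptor that drives adipocyte formation, went the other way, with 1.73 TPM in animal 2 against 3.68 TPM in animal 1 (-0.95), as did the white adipocyte markers. Whether adipocytes carried that difference was not tested.

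Inside the Ppargc1a gene, 3 unclassified genes are annotated on its own strand, so their reads may not be separable from those of Ppargc1a. Gm42614 had 104 counts in animal 2 against 45 in animal 1 (log2 ratio 1.22), Gm42615 had 157 and 59 (1.43), and Gm43605 had 138 and 94 (0.58). All 3 were higher in animal 2, as Ppargc1a was. Gm42613, annotated on the opposite strand of the same gene, had 0 counts in each animal. Mir378a, a microRNA gene inside Ppargc1b, also had 0 counts in each animal. Whether these libraries capture RNAs this short was not tested, so its 0 does not show that it was absent. Twnk, the helicase of mitochondrial DNA, had 9.09 TPM in animal 2 against 12.76 TPM in animal 1 (log2 ratio -0.38), the lowest ratio among the 22 genes of mitochondrial transcription, replication and RNA processing that averaged at least 100 counts.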
